A study of Mus musculus with 4 samples.

Results

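The cytosolic ribosome is built from a small subunit, which reads the messenger RNA, and a large subunit, which joins amino acids into a chain. Each subunit holds ribosomal RNA and its own set of ribosomal proteins, named Rps for the small and Rpl for the large subunit, and cells make these proteins in matched amounts. Many of their messenger RNAs begin with a run of pyrimidines, through which the mTORC1 pathway adjusts their translation to growth factors and nutrients. In striated muscle Rpl3, a protein close to the site where peptide bonds are made, has a paralog, Rpl3l, that is found largely in skeletal muscle and heart.

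The genes described here are those whose names fit the pattern of cytosolic ribosomal proteins, Rpl or Rps followed by a number (with a, l, x or al after it), the stalk proteins Rplp0, Rplp1 and Rplp2, and Rpsa. The pattern was met by 81 of the 22252 gene names in the data, 50 of the large and 31 of the small subunit. The names do not take in Rps3a1, Fau, Rack1 and a few others, some of which are given separately. Of the 81 genes, 79 had a count above 0 in every library, 48 of the large and 31 of the small subunit. The other 2 were Rpl10l and Rpl39l.

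Gene expression was measured by RNA-seq in gastrocnemius, a calf muscle, of 7-week-old male C57BL/6J mice in 4 groups. All mice carried floxed alleles of Nr3c1, the gene of the glucocorticoid receptor (GR). GRf/f mice had no Cre, and GRmKO mice had a Cre recombinase under the Acta1 promoter, which deletes the receptor in muscle fibres from development on and not in the other cells of the muscle. Lean mice had wild-type leptin alleles and ob/ob mice lacked leptin. Each group was sequenced as 1 library of RNA from 3 mice, so no difference within a pair of libraries could be set against the spread between mice. A model over all 4 libraries, with the 2 genotypes in place of replicates of each background, was not fitted. No test is given, and the intervals are 95% intervals for counting error alone.

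The libraries held 20757146 (lean GRf/f), 19897754 (lean GRmKO), 20959781 (ob/ob GRf/f) and 20949729 (ob/ob GRmKO) expected counts. Nr3c1 was at 125, 67.0, 102 and 39.1 CPM (counts scaled to the same total in each library), in the order lean GRf/f, lean GRmKO, ob/ob GRf/f, ob/ob GRmKO, which is kept for every set of 4 values here. It was thus lower in the GRmKO library of each pair. The 10 muscle fibre markers, among them Acta1 and Ckm, summed to between 103618 and 124049 CPM, so the tissue label and the markers did not conflict.

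The first set of sequences shows how near the paralogs Rpl3 and Rpl3l are, since reads must tell them apart. Rpl3 lies on chromosome 15 (80077791 to 80091868, minus strand) and Rpl3l on chromosome 17 (24727820 to 24736143, plus strand) of GRCm38. Their coding sequences have 1209 and 1221 bases, of which 893 were identical in the alignment, or 73.1% of its columns. The first 90 coding bases of each, from GENCODE, are exonic and differ at 21 positions, in capitals.

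Rpl3: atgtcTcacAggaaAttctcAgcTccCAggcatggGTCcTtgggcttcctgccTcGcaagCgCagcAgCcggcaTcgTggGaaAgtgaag
Rpl3l: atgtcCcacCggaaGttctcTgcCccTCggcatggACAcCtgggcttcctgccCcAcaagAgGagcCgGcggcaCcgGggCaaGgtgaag

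The next sequence is shown because it belongs to 2 genes. Rps27 (chromosome 3, 90212522 to 90213651, minus strand) is annotated with several exons, and Rps27rt (chromosome 9, 114982366 to 114982739, minus strand) with 1 exon. The coding sequences of 252 bases were identical at every position. That of Rps27 was taken from another annotated transcript than the one its count is listed under, whose coding sequence has 156 bases. The first 90 bases are:

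Rps27 and Rps27rt: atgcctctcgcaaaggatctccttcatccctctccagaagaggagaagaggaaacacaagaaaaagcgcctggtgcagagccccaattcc

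The last set shows the start of transcription. RefSeq promoters on GRCm38.p6, from 250 bases before to 50 after the start, were matched for 61 of the 81 genes. The windows below run from 60 bases before the start into the first 30 transcribed bases, with the longest run of C and T near the start in capitals. Rpl7a and Rps10 had the longest runs of the large and of the small subunit, 21 and 13 bases, and Rpl3l is shown beside them with a run of 5.

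Rpl7a, chr2:26910747-26910836, plus strand: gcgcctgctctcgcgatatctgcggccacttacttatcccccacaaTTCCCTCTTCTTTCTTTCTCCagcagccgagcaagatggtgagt
Rps10, chr17:27635215-27635304, minus strand: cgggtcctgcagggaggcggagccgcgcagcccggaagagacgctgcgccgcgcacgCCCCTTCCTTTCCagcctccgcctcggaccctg
Rpl3l, chr17:24727766-24727855, plus strand: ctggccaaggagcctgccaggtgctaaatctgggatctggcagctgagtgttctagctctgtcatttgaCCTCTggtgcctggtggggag

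A run of at least 8 pyrimidines was sought within 20 bases before and 30 after the start, on the strand that reads as the RNA. It was found in 30 of the 61 promoters (49.2%) and in 19% of all 32851 promoters of the same length. A run of at least 12 was found in 18% against 4.34%. Of the other letters searched, on both strands and each counted on its own, CCGGAAG (the core bound by ETS factors) was in 37.7% against 8.86%, GGGCGG (the GC box) in 60.7% against 35.7%, GCCATNTT (the YY1 motif) in 16.4% against 6.05%, TATAAA in 8.2% against 13.6%, and the palindromic CGCG element bound by Banp in 8.2% against 0.466%. Such matches describe the letters and are not binding sites.

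The summed share of the 81 ribosomal protein genes was lower in both ob/ob libraries than in both lean ones. They took 1.85% of the counts in lean GRf/f muscle (1.85 to 1.86, Wilson), 1.98% in lean GRmKO (1.97 to 1.98), 1.197% in ob/ob GRf/f (1.192 to 1.201) and 1.199% in ob/ob GRmKO (1.194 to 1.203). The large subunit took 1.15%, 1.22%, 0.754% and 0.763%, and the small subunit 0.709%, 0.758%, 0.443% and 0.436%. Both subunits therefore showed the same order, ob/ob below lean. In such bulk tissue, fewer cells of a type and less RNA per cell cannot be told apart.

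Levels were compared between genes per transcript length, as TPM (counts per base of transcript, scaled to the same sum in each library), computed from the length of the 1 transcript listed for each gene. The median gene was at 459, 484, 290 and 276 TPM. The median of the small subunit was above that of the large subunit in every library, at 510, 516, 328 and 329 against 408, 414, 268 and 269 TPM. By mean expected count, without division by length, none of the 81 genes was among the 50 most abundant genes in these muscles (0 of 50).

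Highest by mean TPM was the stalk protein Rplp1 (1668), followed by Rps2 (982), Rps15 (937), Rpl23a (877) and Rps24 (772). Rplp1 forms, with Rplp2 and Rplp0, the flexible stalk that recruits elongation factors, and was at 669, 702, 384 and 391 CPM. Rps2, which lies where messenger RNA enters the ribosome, was at 708, 745, 551 and 509 CPM. Rps15 was at 371, 385, 231 and 218, Rpl23a at 397, 398, 233 and 237, and Rps24 at 307, 345, 187 and 205 CPM. In each of these 5 genes both ob/ob values were below both lean values, as in 77 of the 79 genes kept. Of all genes, 41.3% showed this order.

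Lowest were Rpl10l and Rpl39l, then Rps27, Rps12 and Rpl10, with means of 3.85, 16.7 and 25.9 TPM for the last 3. Rpl10l, an intronless relative of Rpl10 known from testis, had 7.03 counts in the lean GRf/f library (0.338 CPM, 0.136 to 0.695, exact Poisson) and a count of 0 in the other 3, which allows up to 0.143 to 0.151 CPM at 3 counts. Rpl39l, the corresponding relative of Rpl39, was at 0.432, 0, 0 and 0.0959 CPM. At this depth neither could be compared between groups.

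In ob/ob against lean GRf/f muscle, which asks what obesity without leptin goes with in muscle that has the receptor, 78 of 79 ribosomal protein genes had lower CPM and the median log2 change was -0.69, or 1.61-fold lower. The median of all 14206 genes kept was -0.11. At least 1.5-fold lower were 57 of the 79 genes, 32 of the large and 25 of the small subunit, where 16.5% of all genes were. None was at least 1.5-fold higher (0 of 79, 7.99% of all genes), and 2 were at least 2-fold lower, Rps29 and Rps27l (6.98% of all genes). The interval for counting error lay below 0 for 77 genes. Rpl10 alone had a higher value in the ob/ob library.

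The genes with the largest decreases in GRf/f muscle came from both subunits. Rps29, a zinc-binding protein of the small subunit, was at 238, 257, 113 and 116 CPM, a log2 change of -1.07 (-1.14 to -1.0) in GRf/f and -1.14 in GRmKO muscle. Rps27l, a paralog of Rps27 that p53 induces, was at 43.5, 47.2, 21.7 and 24.7 CPM (-1.0, -1.17 to -0.84). Rpl34 was at 181, 199, 94.3 and 95.7 CPM (-0.94, -1.02 to -0.86). For these 3 genes the ob/ob libraries were near each other and far below both lean ones. Rps20, whose listed transcript of 3706 bases is the longest among the 81, was at 262, 263, 137 and 152 CPM (-0.94, -1.01 to -0.87). Rps16 was at 289, 317, 153 and 134 CPM (-0.91, -0.97 to -0.85).

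In ob/ob against lean GRmKO muscle, the same question in fibres without the receptor, all 79 genes kept had lower CPM and the median was -0.79, or 1.72-fold lower, against -0.21 for all genes. At least 1.5-fold lower were 63 of 79 (23.9% of all genes), 35 of the large and 28 of the small subunit, and 14 were at least 2-fold lower (10.8%). None was at least 1.5-fold higher (0 of 79, 7.81% of all genes). The interval lay below 0 for 76 genes and held 0 for 3.

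The largest decreases in GRmKO muscle were in Rps19, Rps7, Rps16, Rpl3 and Rpl39. Rps19, which is mutated in Diamond-Blackfan anaemia, a failure of red cell formation, was at 53.4, 67.7, 36.5 and 27.4 CPM, and its log2 change was -1.30 (-1.45 to -1.16) in GRmKO and -0.55 (-0.68 to -0.41) in GRf/f muscle. Rps7 was at 154, 187, 93.9 and 78.2 CPM, -1.26 (-1.34 to -1.18) against -0.72 (-0.80 to -0.64). In both genes lean GRmKO was the highest library and ob/ob GRmKO the lowest. Rps16 fell by 1.24 on the log2 scale (-1.30 to -1.17) and Rpl3 by 1.23 (-1.32 to -1.15). Rpl39, a short protein lining the tunnel through which the new chain leaves the ribosome, was at 63.7, 74.4, 35.0 and 32.7 CPM (-1.18, -1.32 to -1.05).

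**Figure D1:**
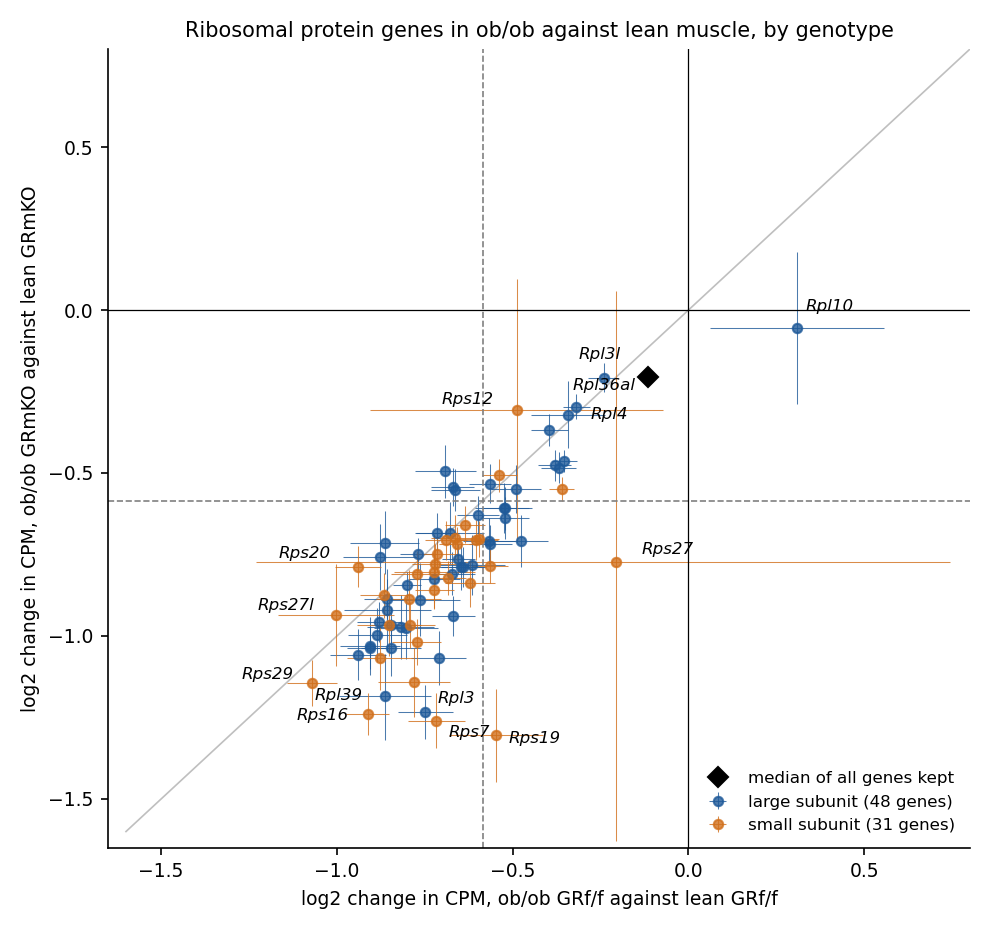
Each point is 1 of the 79 ribosomal protein genes, with its log2 change in CPM in ob/ob against lean GRf/f muscle (x axis) and in ob/ob against lean GRmKO muscle (y axis), which use different libraries. Bars are 95% intervals for counting error, dashed lines mark 1.5-fold lower, and nearly all points lie below and to the left of the median of all genes (diamond, -0.11 and -0.21).

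Both ob/ob libraries were below both lean libraries for 77 of the 79 genes, with Rpl10 and Rps27 as the exceptions, where 41.3% of all genes showed this. The reverse order was seen in 0 of 79 (14.7% of all genes). The 2 comparisons share no library, and the changes of the 79 genes in one were related to those in the other with Pearson's r = 0.76 and Spearman's rho = 0.76 (n = 79 genes, which are not independent and share their libraries). Over all 14206 genes these were 0.34 and 0.42.

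Genes from several functional parts of the ribosome were lower in ob/ob muscle. In the stalk, the log2 change of Rplp1 was -0.80 in GRf/f and -0.84 in GRmKO muscle. That of Rplp2 (130, 136, 74.2 and 68.9 CPM) was -0.80 and -0.98, and that of Rplp0 (713, 786, 559 and 570 CPM) was -0.35 and -0.46, short of 1.5-fold. Rplp0, also known under a name used for it as an invariant control in quantitative PCR, in this study too, thus had lower CPM in both ob/ob libraries, and log2 changes of -0.25 and -0.26 with TMM factors. Rpl5 and Rpl11, which carry the 5S ribosomal RNA and bind Mdm2 when ribosome assembly is disturbed, had log2 changes of -0.52 and -0.61, and of -0.48 and -0.71. Their levels were 209, 228, 146 and 150 CPM for Rpl5, and 157, 164, 113 and 100 CPM for Rpl11. Rps6, the protein that S6 kinase phosphorylates downstream of mTORC1, was at 364, 390, 231 and 237 CPM (-0.66 and -0.72). Rps3, which sits at the entry of messenger RNA, was at 255, 274, 168 and 168 CPM (-0.60 and -0.71). Rps27a, made as a fusion with ubiquitin, was at 78.0, 81.4, 47.2 and 46.7 CPM (-0.72 and -0.80). Each of these 8 genes was lower in both ob/ob libraries than in both lean ones, as were 77 of the 79 and 41.3% of all genes.

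Some abundant genes of the large subunit were among those with the smallest changes. Rpl4, an exit tunnel protein, was at 591, 605, 474 and 492 CPM (-0.32 and -0.30). Rpl7a was at 337, 371, 256 and 287 CPM (-0.40 and -0.37), and Rpl8 at 399, 413, 306 and 297 CPM (-0.38 and -0.48). All 3 stayed short of a 1.5-fold difference, and their intervals did not reach 0. Across the 79 genes, Spearman's rho of the change with coding length was 0.52 in GRf/f and 0.43 in GRmKO muscle. With mean CPM it was 0.28 and 0.36.

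Large and small subunit differed little from each other. The median change was -0.67 for the large and -0.72 for the small subunit in GRf/f muscle, and -0.75 and -0.81 in GRmKO muscle. The quartiles overlapped widely, from -0.83 to -0.52 and from -0.79 to -0.61 in GRf/f muscle. The share at least 1.5-fold lower was 66.7% of the large and 80.6% of the small subunit in GRf/f, and 72.9% and 90.3% in GRmKO muscle. No scaling of the libraries can move a difference between the subunits, and its order turned in GRf/f muscle when each gene was set against genes of its own transcript length (-0.02 in place of 0.05, large minus small), but not with classes of coding length (0.021).

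**Figure D2:**
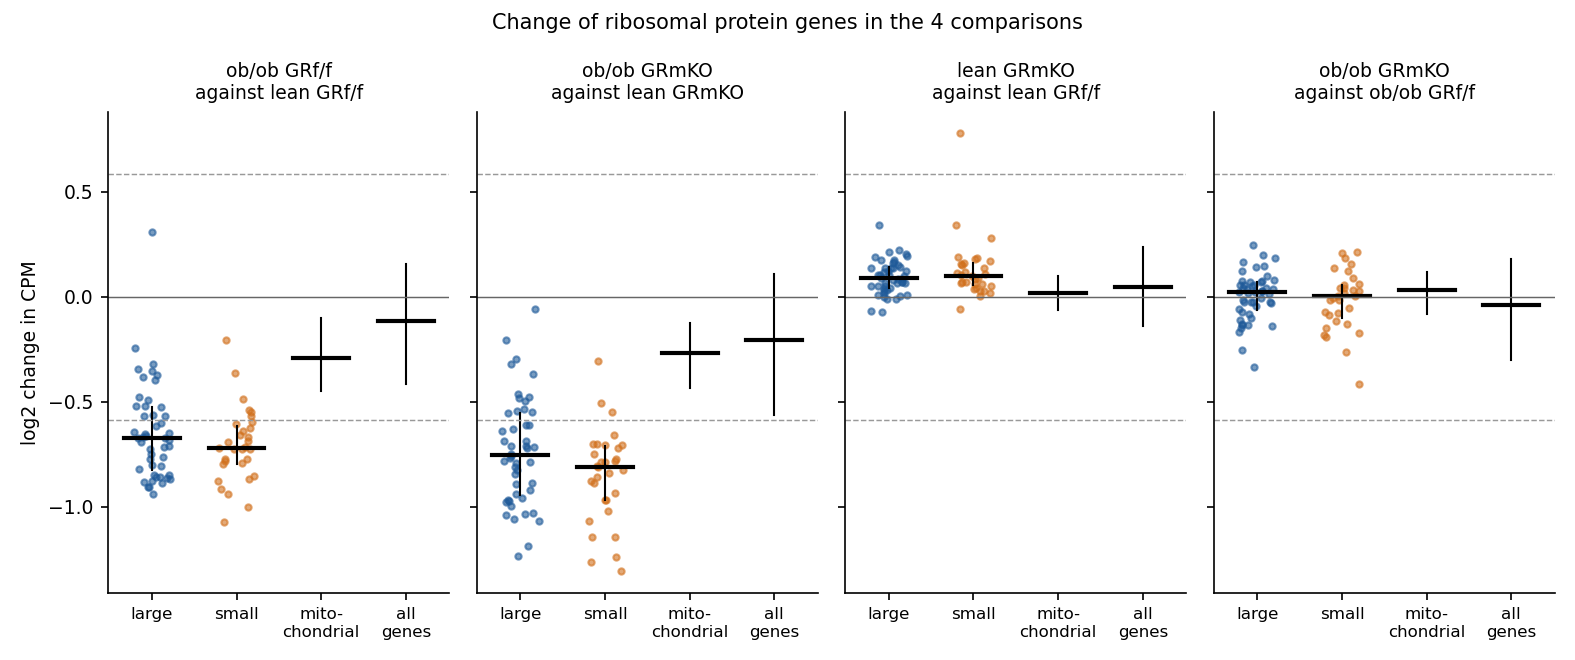
Log2 change in CPM (y axis) of the genes of the large and small subunit in the 4 comparisons, 1 point per gene, with medians (thick lines) and quartiles (thin lines), beside the medians and quartiles of 78 mitochondrial ribosomal protein genes and of all 14206 genes. Dashed lines mark 1.5-fold. Both subunits lie below the other sets in the comparisons of ob/ob with lean muscle and near 0 in the comparisons of genotypes.

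The ribosome of mitochondria is made from a separate set of genes, of which 78 were kept. Their median changes were -0.29 in GRf/f and -0.27 in GRmKO muscle, and 7 of 78 were at least 1.5-fold lower in each, below the 16.5% and 23.9% of all genes. Scaling mattered in size and not in direction. TMM factors shifted every gene by 0.11 in GRf/f and by 0.21 in GRmKO muscle, which brought the median of all genes to -0.01 and 0.00 and that of the 79 cytosolic genes to -0.58 in both. With TMM factors 39 genes were at least 1.5-fold lower in GRf/f muscle, in place of 57, and 36 in GRmKO muscle, in place of 63. The shares of all genes above, 16.5% and 23.9%, are without these factors, and the shares with them are not given.

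Transcript length went with the change in both comparisons of ob/ob with lean muscle. Ribosomal protein transcripts are short, with a median of 751 bases listed for the 81 genes and 2950 for the other genes kept. Among other genes, the median log2 change in GRf/f muscle was -0.54 for transcripts up to 600 bases (185 genes), -0.24 for 1001 to 1500 bases (1421 genes) and 0.01 over 5000 bases (2736 genes). In GRmKO muscle these medians were -0.60, -0.33 and -0.08. Short transcripts in general were thus lower in the ob/ob libraries. Within the same classes the ribosomal protein genes were lower still, at -0.80 up to 600 bases (30 genes) and -0.55 for 1001 to 1500 bases (12 genes) in GRf/f muscle, and at -0.89 and -0.62 in GRmKO muscle. Set against the median of other genes of its length class, a comparison chosen after seeing the data, 71 of 79 genes were lower in GRf/f and 73 of 79 in GRmKO muscle, with medians of -0.24 and -0.29. Of these, 2 and 8 were at least 1.5-fold below their class. With classes of coding length in place of transcript length, 77 and 75 of 79 genes were lower, with medians of -0.44 and -0.43, and 7 and 15 were at least 1.5-fold below. The share of other genes that far below their class is not given for either length. The size of the difference thus depended on which length was used. RNA integrity was not analysed here, and the part of transcript length in the decrease was not tested beyond these values.

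**Figure D3:**
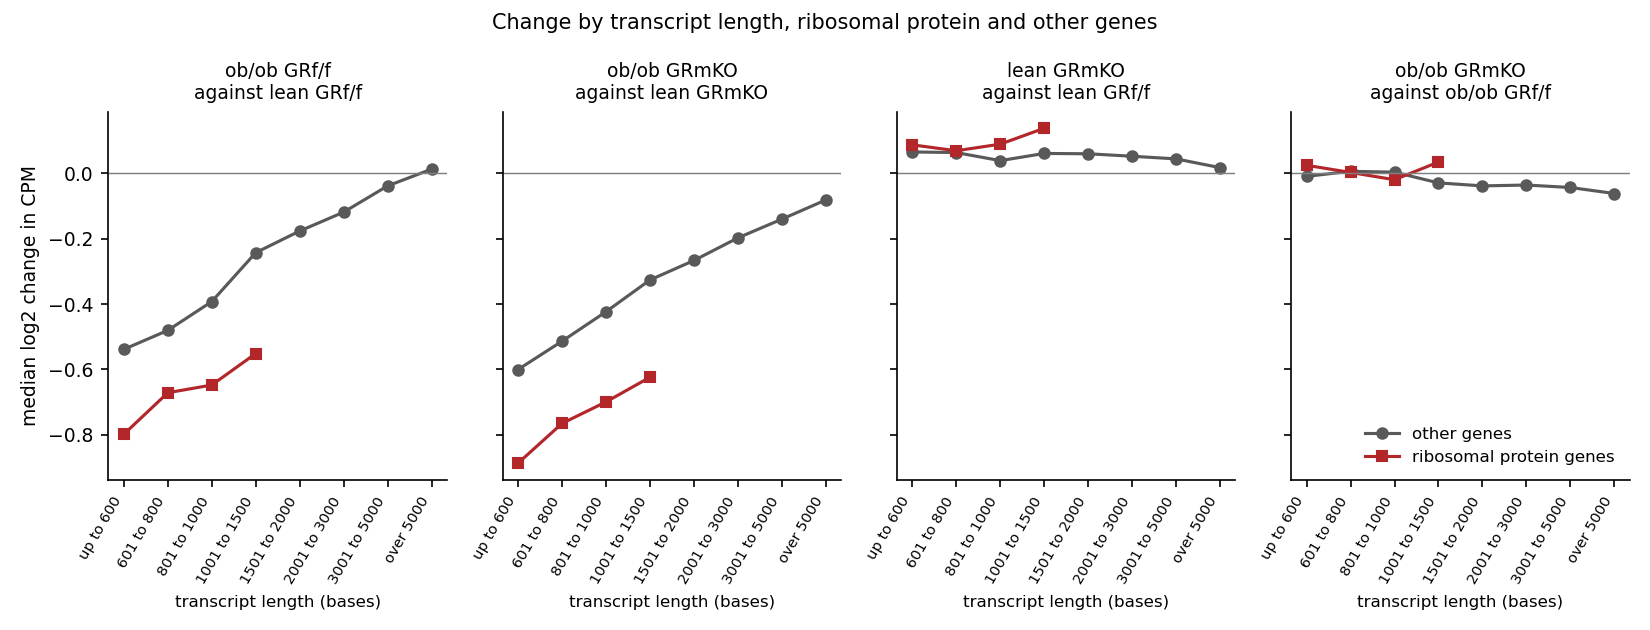
Median log2 change in CPM (y axis) by class of listed transcript length (x axis, bases) for ribosomal protein genes (squares, classes of at least 10 genes) and all other genes kept (circles) in the 4 comparisons. In ob/ob against lean muscle both lines climb with length and the ribosomal protein genes lie lower at each length, while in the comparisons of genotypes both lines are nearly flat.

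Markers of muscle fibres and of other cells moved in the same comparisons. The myofibre markers had median log2 changes of 0.30 in GRf/f and 0.55 in GRmKO muscle, with 4 and 5 of 10 at least 1.5-fold higher in ob/ob. Of 9 kept genes of developing or regenerating fibres, 5 were higher and 1 lower in ob/ob GRf/f muscle by that size. In ob/ob GRmKO muscle 4 were higher and 0 lower. Between genotypes, 9 were higher in lean GRmKO and 7 in ob/ob GRmKO than in GRf/f muscle of the same background. The 10 listed genes summed to 896, 3545, 406 and 3277 CPM, so their sum was lower in ob/ob muscle of each genotype. The 9 leukocyte markers summed to 369, 492, 245 and 187 CPM, with 4 of the 8 kept at least 1.5-fold lower in GRf/f and 8 of 8 in GRmKO muscle. The 7 erythroid markers summed to 2232, 2129, 972 and 874 CPM, with 7 of 7 and 6 of 7 lower. Endothelial markers summed to 1155, 1104, 884 and 701 CPM, adipocyte markers to 545, 287, 270 and 145 CPM, and fibroblast markers to 5449, 5884, 10521 and 5698 CPM. Of 7 fibroblast markers, 1 was at least 1.5-fold lower and 2 higher in ob/ob GRf/f muscle, and 5 lower and 1 higher in ob/ob GRmKO muscle. Of 6 adipocyte markers, 2 were lower and 1 higher in each comparison. Of all genes, 16.5% and 23.9% were lower, and 7.99% and 7.81% higher, by that size. No marker of these lists was at 0 in all libraries (0 genes). In each genotype the leukocyte, erythroid, endothelial and adipocyte sums were thus lower, and the myofibre sum higher, in ob/ob muscle beside the lower ribosomal protein genes, and their part in the result was not tested.

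Of 6 listed genes outside the name pattern that were kept, 4 were at least 1.5-fold lower in ob/ob GRf/f and 5 in ob/ob GRmKO muscle than in the lean muscle of the same genotype, with medians of -0.77 and -0.90. The log2 changes were -0.77 and -0.74 for Rps3a1, of the small subunit, and -0.77 and -1.05 for Fau, made as a fusion with a ubiquitin-like protein. They were -0.51 and -0.68 for Rack1, a scaffold on the small subunit.

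Other genes of the translation machinery were closer to the median gene, and their counts are to be read against all genes, of which 16.5% were at least 1.5-fold lower and 7.99% higher in GRf/f muscle, and 23.9% and 7.81% in GRmKO muscle. Of 30 ribosome biogenesis genes, 0 were at least 1.5-fold lower and 1 higher in GRf/f muscle (median -0.16), and 3 lower and 2 higher in GRmKO muscle (median -0.14). The log2 change of fibrillarin (Fbl), a methyltransferase of ribosomal RNA, was -0.31 and -0.39, and that of nucleophosmin (Npm1) -0.57 and -0.38. Of 19 elongation and other genes with terminal oligopyrimidine messages, 3 were at least 1.5-fold lower in each comparison (medians -0.32 and -0.31). Eef1a1, the general elongation factor that delivers transfer RNA, had log2 changes of -0.75 and -1.09, and Tpt1 of -0.83 and -0.89. Those of Eef1a2, the muscle and neuron paralog of Eef1a1, were 0.14 and 0.18. Of 17 genes of mTORC1 and translation control, 3 were lower and 0 higher in GRf/f, and 2 lower and 2 higher in GRmKO muscle (medians 0.08 and 0.03). Ddit4, an inhibitor of mTORC1 that glucocorticoids induce, had log2 changes of -1.84 and -0.64, and Mtor itself of 0.31 and 0.55.

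Between genotypes 1 ribosomal protein gene differed by 1.5-fold in lean mice and 0 in ob/ob mice. In lean GRmKO against lean GRf/f muscle, which asks what loss of the receptor goes with in lean mice, the median change was 0.09 (0.05 for all genes). Rps27 was the 1 gene at least 1.5-fold higher (9.45% of all genes), at 20.5 and 33.7 counts, with a log2 change of 0.78 (-0.07 to 1.61) whose interval held 0. None was lower by that size (0 of 79, 7.76% of all genes). The intervals lay above 0 for 49 genes and below 0 for 2, with a median half-width of 0.06. These intervals are for CPM, and TMM factors shifted every gene by -0.057 and took the median of the 79 genes to 0.035. In ob/ob GRmKO against ob/ob GRf/f muscle the median change was 0.02 (-0.04 for all genes), and 0 genes were higher (8.6% of all genes) and 0 lower (12.2%) by 1.5-fold. There the intervals lay above 0 for 17 genes, below 0 for 21 and across 0 for 41, and TMM factors shifted every gene by 0.042. How many of all genes had intervals clear of 0 is not given for any comparison. Both GRmKO libraries were above both GRf/f libraries for 1 of 79 genes (13.6% of all genes) and below them for 0 (11.7%).

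The changes between genotypes in the lean and in the ob/ob background, which share no library, had r = 0.04 and rho = 0.06 across the 79 genes. For these 2 backgrounds the median of the large subunit was 0.09 and 0.02, and that of the small subunit 0.10 and 0.00.

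The muscle paralog Rpl3l was the more abundant of its pair in every library, and its share was larger in ob/ob muscle. Rpl3l was at 463 CPM in lean GRf/f (454 to 472), 442 in lean GRmKO (433 to 452), 391 in ob/ob GRf/f (383 to 400) and 383 in ob/ob GRmKO muscle (375 to 392). Rpl3 was at 173 (167 to 179), 192 (186 to 198), 103 (98.6 to 107) and 81.6 CPM (77.8 to 85.5). The log2 change of Rpl3l was -0.24 (-0.28 to -0.20) in GRf/f and -0.21 (-0.25 to -0.16) in GRmKO muscle, among the smallest of the 79 genes, and that of Rpl3 was -0.75 (-0.83 to -0.67) and -1.23.

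The listed transcripts of Rpl3l and Rpl3 have 1375 and 1351 bases, so that a difference in length between them is small. Per transcript base, Rpl3l exceeded Rpl3 by 2.63-fold in lean GRf/f (2.53 to 2.74), 2.27-fold in lean GRmKO (2.18 to 2.36), 3.74-fold in ob/ob GRf/f (3.57 to 3.92) and 4.62-fold in ob/ob GRmKO muscle (4.38 to 4.86), and no 2 of these intervals overlap. The log2 ratio differed by 0.51 (0.42 to 0.59) between ob/ob and lean GRf/f and by 1.03 (0.93 to 1.12) between ob/ob and lean GRmKO muscle. Between genotypes it was lower by 0.22 in lean GRmKO (-0.22, -0.29 to -0.14) and higher by 0.30 in ob/ob GRmKO muscle (0.20 to 0.41). A ratio within a library does not depend on scaling, and it shows unequal change of the pair. The 2 genes together summed to 636, 634, 494 and 465 CPM.

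**Figure D4:**
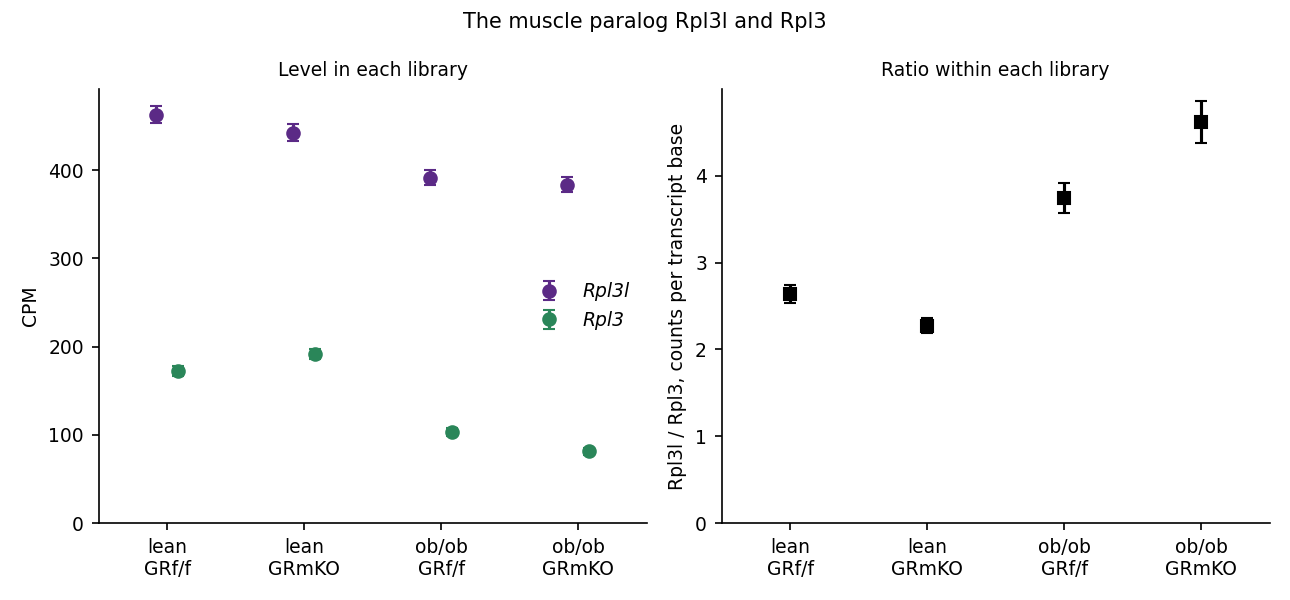
CPM of Rpl3l and Rpl3 (left) and the ratio of Rpl3l to Rpl3 per transcript base (right) in the 4 libraries (x axis), with 95% intervals for counting error. The ratio is 2.27 to 2.63 in the lean and 3.74 to 4.62 in the ob/ob libraries.

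Some other paralogs share much of their sequence with further gene names. Rpl36a was at 99.5, 104, 54.2 and 61.7 CPM (-0.88 and -0.76), and Rpl36al, encoded by another chromosome, at 80.2, 84.7, 63.2 and 67.8 CPM (-0.34 and -0.32). The change of Rpl36al was thus smaller than that of Rpl36a in both comparisons, as with Rpl3l beside Rpl3. Of the 31-base words in the listed transcripts of Rpl36a and Rpl36al, 30.5% and 38.9% occur in no other gene name. The name sharing most words was Rpl36a-ps1 for Rpl36a (66.0%) and Gm49383 for Rpl36al (61.1%). For Rps27l and Rpl10l 100% of words were unique. Rps4x, the copy of Rps4 on the X chromosome, was at 357, 396, 241 and 230 CPM (-0.56 and -0.79), and 74.0% of its words were unique.

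The 3 lowest genes with counts in all libraries, Rps27, Rps12 and Rpl10, each have a coding sequence that another gene name repeats exactly. Rps12-ps3 (chromosome 19, 59322290 to 59322783), Rps27rt (above) and Rpl10-ps3 (chromosome 9, 50344201 to 50344968) are annotated as protein-coding genes with 1 exon, and over 396, 252 and 642 coding bases they matched Rps12, Rps27 and Rpl10 at 100% of positions. For Rps12, as for Rps27, the matching transcript is not the listed one, which is annotated as a target of nonsense-mediated decay with 142 coding bases. For Rpl10 it is the listed one. Rps12-ps3 and Rpl10-ps3 were chosen after their values were seen. Reads within the shared coding sequences match both names.

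The counts lay on the copies. Rps12 was at 5.70, 5.82, 4.06 and 4.70 CPM and Rps12-ps3 at 243, 261, 120 and 111 CPM. Rps27 was at 0.989, 1.70, 0.858 and 0.993 CPM and Rps27rt at 279, 285, 128 and 126 CPM. Rpl10 was at 12, 15.1, 14.8 and 14.6 CPM and Rpl10-ps3 at 403, 447, 265 and 252 CPM. The summed levels of each pair were in the range of the other ribosomal protein genes. The sum of Rps12 and its copy had log2 changes of -1.01 and -1.20 in ob/ob against lean GRf/f and GRmKO muscle, that of Rps27 of -1.12 and -1.17, and that of Rpl10 of -0.57 and -0.80. The values of Rps27, Rps12 and Rpl10 on their own, among them the 1 higher value in ob/ob GRf/f and the 1 gene past 1.5-fold between genotypes, are therefore uncertain.

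**Figure D5:**
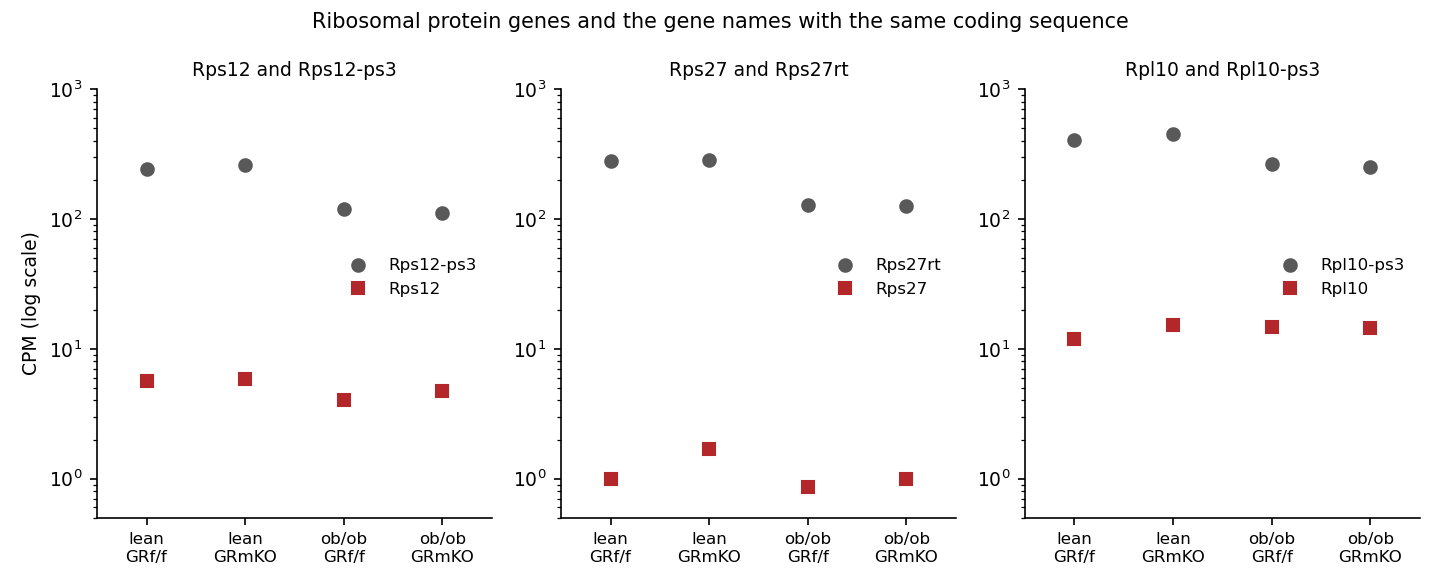
CPM on a log scale (y axis) of Rps12, Rps27 and Rpl10 (squares) and of the gene names with the same coding sequence (circles) in the 4 libraries (x axis). The circles lie above the squares in every library, and are lower in the ob/ob than in the lean libraries.

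In all, 15 of the 81 genes had less than 80% unique 31-base words. With the 64 others that were kept, the median log2 change was -0.70 in ob/ob against lean GRf/f muscle.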

How the data were processed

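Total RNA of gastrocnemius muscle, pooled from 3 mice per group, was sequenced as 100-bp paired-end reads by the authors, who asked for an RNA integrity number of at least 7.0 and quantified the reads with Salmon 1.2.1 against protein-coding transcripts of GENCODE M20. The deposited values are expected counts, made by the authors with tximport (lengthScaledTPM) in R 3.5.0, named through biomaRt, with the largest kept among duplicated gene names. The submitters' processing notes name mm10 (GRCm38). They are not normalized between libraries, and whether reads were counted by strand is not given in the sources used here.

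Each file lists 1 transcript per gene name. All 22252 were found in GENCODE M21 on GRCm38, 21684 under the same name, and lengths, exons and coding sequences are from there. CPM were computed over all gene names. TPM here are counts per base of the listed transcript, scaled to the same sum in each library, and depend on that choice of transcript. Genes with a count above 0 in all 4 libraries were kept. Changes are log2 ratios of CPM, called by size alone (1.5-fold), with exact conditional binomial intervals, exact Poisson intervals for CPM and Wilson intervals for shares and for ratios within a library. They cover counting error only. The simulation-based test of the study was not used, since it rests on simulated replicates.

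The members and lists were chosen with earlier results of these data known. The text gives all values for the paralog pairs, the 5 members highest and lowest per length, and the up to 5 largest changes past 1.5-fold in each direction with 50 or more counts in either library of the pair. Other members are named for their roles. A gene of the accompanying lists is not reported here. Alternatives were TMM factors of edgeR 4.0.16 and DESeq2 1.42.0 size factors (R 4.3.3, on rounded expected counts), a total that left out the 50 most abundant genes, a minimum of 10 counts per library, no filter with 0.5 counts added, members with at least 80% unique 31-base words, members with 1 protein-coding transcript, and a 2-fold change. The scripts were tested on simulated data and ran in Python 3.11.15 with numpy 2.4.6, pandas 2.3.3, scipy 1.17.1, biopython 1.88 and matplotlib 3.10.9.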

Additional observations from a re-analysis of the deposited data

Results flagged for a closer look

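For 7 of the ribosomal protein genes given with their values, the difference between GRmKO and GRf/f muscle had opposite signs in lean and in ob/ob mice, with both counting intervals clear of 0. The difference between the backgrounds was not tested, since each group has 1 library. The log2 changes in lean and then in ob/ob mice were 0.34 and -0.41 for Rps19, 0.28 and -0.26 for Rps7, 0.15 and -0.33 for Rpl3, and 0.14 and -0.19 for Rps16. They were 0.15 and -0.071 for Rps4x, 0.073 and -0.11 for Rps2, and 0.053 and -0.085 for Rps15. Among all 79 genes this was seen in 12, of which 11 kept opposite signs with TMM factors. The share of all genes with opposite signs of this kind is not given, so whether 12 of 79 is many cannot be said. Rps15 was the exception with TMM factors. None of these changes reached 1.5-fold (0 of 12).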

How the results depend on the processing

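The direction of the median change in ob/ob against lean muscle was the same under every alternative tried, and its size was not. In GRf/f muscle the median log2 change of -0.69 became -0.58 with TMM factors, -0.57 with DESeq2 size factors, -0.65 without the 50 most abundant genes, -0.70 with members of at least 80% unique words, -0.71 with members of 1 protein-coding transcript, and -0.24 relative to other genes of the same length class, an alternative chosen after seeing the data. In GRmKO muscle -0.79 became -0.58, -0.57, -0.71 (without the 50 most abundant genes) and -0.29 (length class). In lean GRmKO against GRf/f muscle 0.09 became 0.035 (TMM), 0.043 (DESeq2), 0.10 (unique words, and also 1 transcript) and 0.039 (length class). In ob/ob mice 0.02 became 0.062 with TMM factors, 0.061 without the 50 most abundant genes and 0.068 with DESeq2. The 57 genes at least 1.5-fold lower in GRf/f muscle became 39 with TMM factors and 38 with DESeq2 size factors. They became 22 of the 26 kept genes with 1 transcript (a larger share), 2 relative to length class (and 1 higher) and 2 at 2-fold. The 63 in GRmKO muscle became 36 with TMM factors and with DESeq2, 22 of the same 26 with 1 transcript, 8 relative to length class and 14 at 2-fold. With no filter, 1 gene was higher in this comparison, 2 were lower in lean GRmKO against GRf/f, and 1 was higher in ob/ob GRmKO against GRf/f. The 1 higher gene in lean GRmKO became 0 with unique words, with 1 transcript and at 2-fold. The large minus small subunit difference, 0.046 in GRf/f, 0.057 in GRmKO and -0.011 between the lean genotypes, became 0.066 (1 transcript) and -0.024 (length class) in GRf/f, 0.077 (no filter), 0.083 (unique words), 0.012 (1 transcript) and 0.010 (length class) in GRmKO, and 0.010 (unique words) and 0.019 (1 transcript) in lean GRmKO against GRf/f muscle. Classes of coding length, also chosen after seeing the data, gave medians of -0.44 (GRf/f), -0.43 (GRmKO) and 0.034 (lean genotypes), 7 and 15 genes lower in ob/ob GRf/f and GRmKO muscle, and large minus small differences of 0.021 and 0.092. Without the 50 most abundant genes in the total, the members took 3.39%, 3.60%, 2.24% and 2.31% of the 4 libraries. The filter at 10 counts moved nothing past these bounds, and the ratio of Rpl3l to Rpl3 stayed within its intervals with raw counts and with the longest transcripts. With 1 library in each group none could be left out within a group, and no fit with genotype as a block was made. Depth was similar in all libraries and limits mainly Rpl10l, Rpl39l and Rps27.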
